A study of Papio hamadryas with 160 samples.

Results

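The dorsomedial prefrontal cortex (dmPFC) was compared with the orbitofrontal cortex (OFC) of the same animals across 362 miRNAs. Members were chosen by the region label alone: the 4 dmPFC libraries of Group A were set against the 8 OFC libraries of the same 4 animals (4 lateral, lOFC, and 4 medial, mOFC), so that 12 of the 31 Group A libraries and of the 76 libraries of the series entered. The animals, A1 to A4, were adult female baboons (Papio hamadryas) of a research colony, with no treatment groups among them. According to the paper, their earlier enrolment in other studies varied by animal and ended well before euthanasia. The dmPFC, labelled prefrontal cortex (BA9), came from the dorsomedial bank of the superior frontal gyrus, the lOFC from the ventrolateral frontal cortex and the mOFC from the straight gyrus on the ventromedial surface. Each is bulk tissue with all of its cell types, dissected from coronal slices of a brain kept cold after pentobarbital euthanasia and then frozen, and 1 small RNA library per piece of tissue was sequenced in more than 1 run.

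MicroRNAs (miRNAs) are short RNAs that guide Argonaute proteins to matching messenger RNAs, which are then degraded or translated less. Many are made mainly in one kind of cell, so their level in bulk tissue reflects both the mix of cells and what each cell makes, and in such samples fewer cells of a type and less RNA per cell cannot be told apart. The dmPFC is known for its part in the monitoring of actions and in thought about oneself and others, and the OFC for the coding of reward value. Reads were matched to human miRNAs, so names carry the prefix hsa, and levels are given as RPM, the reads of a miRNA scaled to the mapped miRNA reads of its library.

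Libraries held 3295596 to 4940251 mapped reads in the dmPFC, 2330744 to 4644644 in the lOFC and 2424338 to 6385960 in the mOFC, of which the 362 miRNAs took between 60.4% and 63.7%. A count of 3 reads was worth 0.470 to 1.29 RPM, and each of the 362 miRNAs had reads in each of the 12 libraries. The neuronal hsa-miR-124-3p was picked out after its values were seen. It stood at 6453 to 10400 RPM in the dmPFC and 5323 to 9967 RPM in the OFC. In blood mononuclear cells of these animals it stood at 1.43 to 3.16 RPM. These levels set brain apart from blood. The dmPFC and OFC ranges overlapped, so they could not check which of both regions a library came from. hsa-miR-34c-5p, at 450.5 to 6658 RPM in the hypothalamus of these animals, stood at 12.4 to 36.2 RPM in the dmPFC and 4.35 to 70.1 RPM in the OFC. Of the OFC libraries, the mOFC of A3 and the mOFC of A4 differed most from the rest, as described with the cell type lists.

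No miRNA differed between dmPFC and OFC past the threshold. With the animal as a block, limma called 0 of 362 miRNAs (0%) at an adjusted p under 0.05, and the smallest adjusted p was 0.24. At an unadjusted p under 0.05 there were 25 miRNAs (6.91%), 13 of them higher in the dmPFC and 12 lower. The count test of edgeR on recovered reads also called 0, with 28 at an unadjusted p under 0.05, and DESeq2 called 1, hsa-miR-146b-5p, with 25 at an unadjusted p under 0.05. The outcome depended on single animals: without A1, A2, A3 or A4, limma called 4, 0, 5 and 2 miRNAs. Each such fit has fewer pairs, and its SEs are partly borrowed from the other miRNAs. A call in it is thus no support for a difference.

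The mean differences were small, and the limma intervals bounded most of them. The median absolute log2 difference was 0.13, which is under the median distance of a 95% limit to the estimate, 0.33. For 357 of the 362 miRNAs the whole 95% interval lay within 1 log2 unit on either side of 0, so that a change of 2-fold or more was outside it. The width of these limma intervals is partly borrowed from the other miRNAs, so the bound need not hold on a miRNA's own 4 values. For hsa-miR-219a-2-3p the interval was −0.26 to 0.88, while its animals ran from −0.54 to 1.81. The mean difference was above 0.5 on the log2 scale for 6 miRNAs, below −0.5 for 2, and above 1 in size for 0. In no case did the 4 dmPFC libraries lie wholly above the 8 OFC libraries (0%) or wholly below them (0%). In all 4 animals the dmPFC was above the OFC mean for 23 miRNAs (6.35%) and below it for 31 (8.56%). These counts became 34 and 37 with median-of-ratios scaling, 29 and 16 against the lOFC alone, and 15 and 36 against the mOFC alone. With 4 pairs, 1 direction in all animals reaches at best p = 0.125 in an exact sign-flip test, so it is weak evidence for any miRNA. Against each OFC library of the same animal on its own, 4 miRNAs were higher in the dmPFC in all 8 pairs of libraries (hsa-miR-10a-5p, hsa-miR-126-5p, hsa-miR-146b-5p and hsa-miR-33a-5p) and 5 were lower (hsa-miR-128-3p, hsa-miR-181d-5p, hsa-miR-485-3p, hsa-miR-767-5p and hsa-miR-885-5p), and hsa-miR-33a-5p, hsa-miR-181d-5p and hsa-miR-885-5p among them were picked out after their values were seen.

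**Figure D1:**
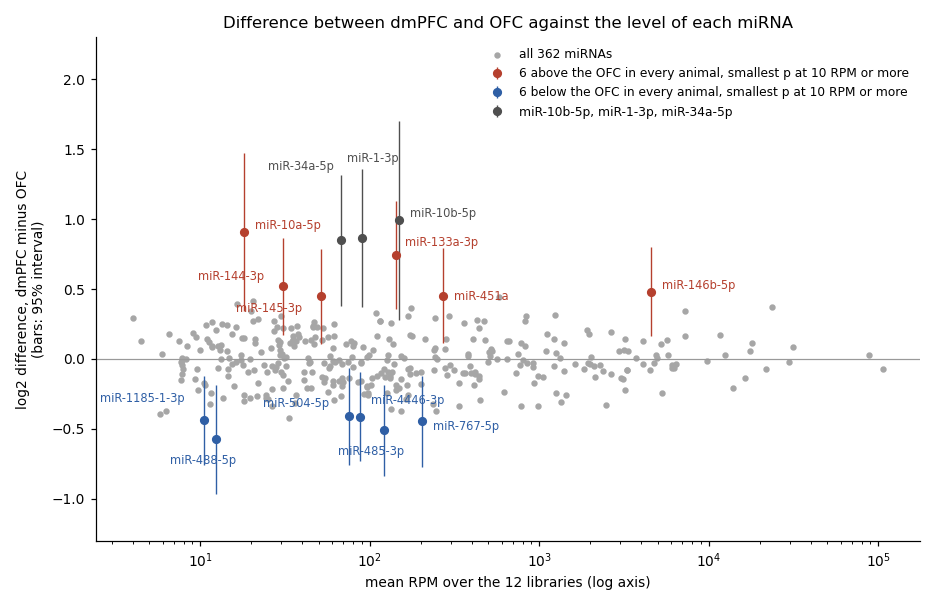
Log2 difference, dmPFC minus OFC (y axis), against the mean level over the 12 libraries (x axis, RPM, log axis) for 362 miRNAs in grey; bars on the 15 coloured points are 95% intervals from limma. Most points sit close to 0, and the widest departures, up to 0.99, belong to miRNAs of moderate or low level.

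The most abundant miRNAs were shared by both regions. In the dmPFC hsa-miR-26a-5p led with 102913 ± 22652 RPM (SD, n = 4), against 107904 ± 15836 RPM in the OFC. It was followed by hsa-miR-181a-5p at 87214 ± 14432 RPM in the dmPFC and 88803 ± 24689 RPM in the OFC. Next came hsa-miR-9-5p, a miRNA of neural progenitors and neurons, at 32592 ± 6177 RPM and 30689 ± 4589 RPM in the same order of regions. The other two of the leading 5 were hsa-miR-22-3p, with a log2 difference of −0.02 (SE 0.16), and hsa-miR-143-3p, at 0.37 (SE 0.17, adjusted p = 0.68). These 5 made up 45.3% of the RPM of the 362 miRNAs in the dmPFC. The leading 20 of the dmPFC shared 19 members with those of the lOFC and 18 with those of the mOFC.

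Within an animal the regions resembled each other about as much as the OFC pieces did among themselves. The median absolute log2 difference over miRNAs between dmPFC and lOFC was 0.24 in A1, 0.24 in A2, 0.14 in A3 and 0.22 in A4. Between dmPFC and mOFC it was 0.23, 0.26, 0.39 and 0.24 in the same order of animals. Between lOFC and mOFC it was 0.13, 0.21, 0.39 and 0.26. In A3 the dmPFC was thus much nearer to the lOFC than either was to the mOFC, and in A1 the OFC pieces were the closer pair. Between the dmPFC of different animals the median absolute difference was larger than that between dmPFC and lOFC of any animal, at 0.27 to 0.33 over the 6 pairs of animals. Spearman's correlation over the miRNAs, which are not independent replicates, was 0.990 to 0.994 between dmPFC and lOFC and 0.965 to 0.988 between dmPFC and mOFC. The lOFC and mOFC were also compared with each other in limma, where 0 of 362 miRNAs (0%) passed and 7 had an unadjusted p under 0.05.

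**Figure D2:**
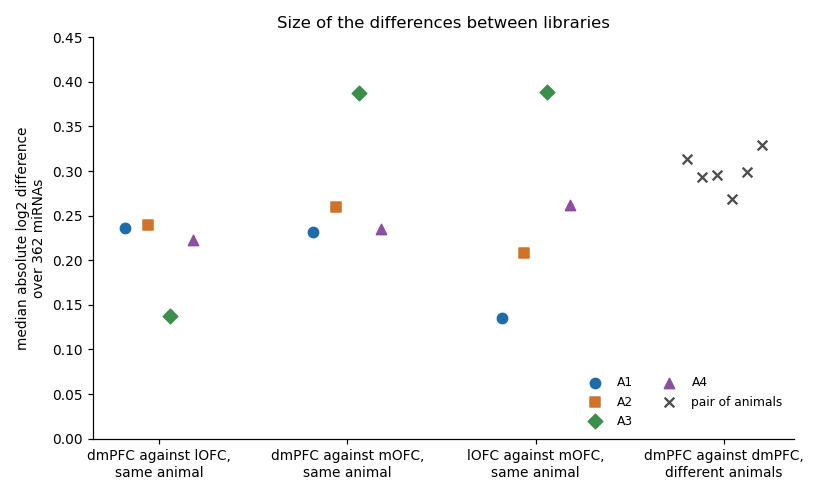
Median absolute log2 difference over 362 miRNAs (y axis) between pairs of libraries: dmPFC against lOFC, dmPFC against mOFC and lOFC against mOFC within each animal, and dmPFC against dmPFC between animals (crosses, 6 pairs). The regions of 1 animal mostly lie between 0.13 and 0.26, with A3 at 0.39 for both comparisons that involve its mOFC, and the crosses lie between 0.27 and 0.33.

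Of the miRNAs that stood above the OFC in each of the 4 animals, hsa-miR-133a-3p had the smallest p. It and hsa-miR-1-3p are made from the same precursor transcripts and are known as miRNAs of striated muscle. hsa-miR-133a-3p was at 285, 171, 125 and 182 RPM in the dmPFC of A1 to A4, against 141, 139, 222.2 and 65.9 RPM in their lOFC and 115, 119, 51.0 and 95.8 RPM in their mOFC. The dmPFC was the highest piece in A1, A2 and A4, while in A3 the lOFC was above it and the mOFC far below. The log2 difference was 0.75 (SE 0.18, 95% interval 0.36 to 1.13, limma adjusted p = 0.24), or 1.68-fold, and it missed the threshold. hsa-miR-1-3p was at 218, 78.2, 63.8 and 162 RPM in the dmPFC of A1 to A4, against 95.1, 43.8, 124 and 58.9 RPM in the lOFC and 54.0, 28.1, 52.2 and 100.4 RPM in the mOFC. It took the same shape, with A3 alone below its OFC mean (log2 difference 0.86, SE 0.23, adjusted p = 0.24). The striated muscle list had 3 of 4 means above 0 and a median of 0.48, which was 0.31 against the lOFC alone. The member with a mean below 0, hsa-miR-208b-3p, encoded in a myosin heavy chain gene and named after its values were seen, was below the OFC in 4 of 4 animals, with a log2 difference of −0.25 (SE 0.16, adjusted p = 0.72).

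hsa-miR-34a-5p, a miRNA whose gene is a known target of the tumour suppressor p53, was picked out after its values were seen because it followed the same pattern. Its level was 155, 67.2, 72.3 and 81.0 RPM in the dmPFC of A1 to A4, against 54.6, 35.6, 139 and 28.7 RPM in the lOFC and 52.4, 39.0, 49.9 and 39.8 RPM in the mOFC. The lOFC of A3 was once more the exception, and the log2 difference was 0.85 (SE 0.22, adjusted p = 0.24). Without A3, limma called all 3 of these miRNAs higher in the dmPFC, with log2 differences of 0.92 for hsa-miR-133a-3p, 1.26 for hsa-miR-1-3p and 1.20 for hsa-miR-34a-5p. Without A3, hsa-miR-10a-5p and hsa-miR-34c-5p (log2 difference 0.73, also picked out after its values were seen) were called as well. A3 had the lowest difference of the animals for each of the 3, so leaving it out removes the lowest value. That value was below 0 for hsa-miR-1-3p (−0.34) and hsa-miR-34a-5p (−0.20) and above 0 for hsa-miR-133a-3p (0.22). None of the 3 was called without A1, without A2 or without A4. Their lowest leave-out log2 differences were 0.60 for hsa-miR-133a-3p, 0.62 for hsa-miR-1-3p and 0.62 for hsa-miR-34a-5p.

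These 3 miRNAs were not highest in the dmPFC among the cortical pieces of Group A. hsa-miR-133a-3p averaged 191 ± 67.6 RPM in the dmPFC (SD, n = 4), 269 ± 51.8 RPM in the posterior cingulate cortex and 107 ± 24.4 RPM in the dorsal anterior cingulate cortex. hsa-miR-34a-5p averaged 94.0 ± 41.3 RPM in the dmPFC, 122 ± 15.1 RPM in the posterior cingulate and 53.8 ± 14.7 RPM in the anterior cingulate. The dmPFC thus lay between both cingulate areas, and its range overlapped that of each for both miRNAs. hsa-miR-1-3p followed the same order, at 131 ± 72.7 RPM in the dmPFC, 199 ± 56.1 RPM in the posterior cingulate and 71.5 ± 10.1 RPM in the anterior cingulate.

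The largest mean differences belonged to the miR-10 pair, which is encoded within the HOX gene clusters and is known to be abundant in tissues from the hindbrain backwards and low in the forebrain. hsa-miR-10a-5p was at 15.7, 66.1, 15.0 and 20.03 RPM in the dmPFC of A1 to A4, against 9.30, 11.6, 8.18 and 17.0 RPM in the lOFC and 12.8, 11.5, 12.1 and 17.9 RPM in the mOFC. Each animal's dmPFC exceeded both of its OFC pieces, by a wide margin in A2 and narrowly in A4. The log2 difference was 0.91 (SE 0.27, 95% interval 0.34 to 1.47, adjusted p = 0.30). Its lowest value, in the lOFC of A1, rested on 23 reads. Blood mononuclear cells of these animals held 4843 to 9089.5 RPM of it, and the part of blood in the brain values was not tested. It was called without A1, without A3 and without A4, at log2 differences of 1.05 (SE 0.21), 1.03 (SE 0.22) and 1.15 (SE 0.26). Without A2 the difference was 0.41 and was not called. Each of these calls includes A2, whose difference was 2.42, against 0.19 to 0.54 in the other animals. The SEs are partly borrowed from the other miRNAs, so these calls do not show agreement between animals.

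hsa-miR-10b-5p varied with single libraries and animals. It was at 145, 249, 333 and 62.8 RPM in the dmPFC of A1 to A4, against 168, 202, 70.0 and 27.2 RPM in the lOFC and 47.4, 36.8, 47.5 and 408 RPM in the mOFC. The mOFC was the lowest of the 3 pieces in A1, A2 and A3 and the highest of all 12 libraries in A4. The log2 difference was 0.99 (SE 0.34, 95% interval 0.28 to 1.70, adjusted p = 0.34). Where the OFC of A4 was taken from its lOFC alone, an alternative chosen after seeing the data, the log2 difference was 1.47 (SE 0.22), above the OFC in 4 of 4 animals, with an adjusted p of 0.0020, and hsa-miR-10b-5p was then the single call. Without A4 it was 1.57 and without A1 1.09, and it was called in both. Without A3 it was 0.48 and was not called.

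**Figure D3:**
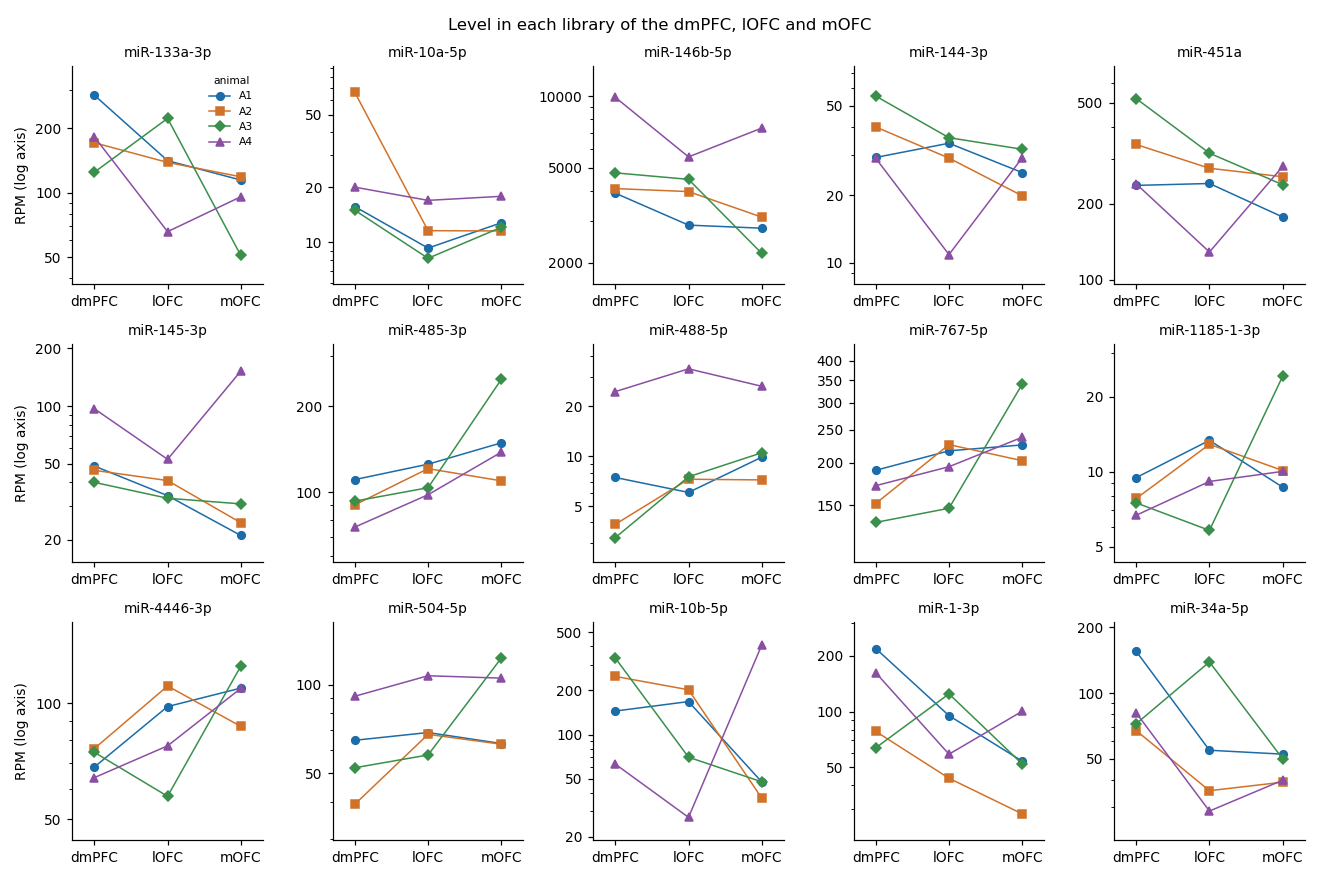
RPM (y axes, log) of 15 miRNAs in the dmPFC, lOFC and mOFC, with 1 line per animal: first the 6 above and then the 6 below the OFC mean in 4 of 4 animals, then hsa-miR-10b-5p, hsa-miR-1-3p and hsa-miR-34a-5p. The lOFC of A3 rises above its dmPFC for hsa-miR-133a-3p, hsa-miR-1-3p and hsa-miR-34a-5p, and the mOFC of A4 reaches 408 RPM for hsa-miR-10b-5p.

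hsa-miR-146b-5p, a relative of the NF-κB-induced hsa-miR-146a-5p that acts on innate immune signalling, was the most abundant of the leading miRNAs. It was at 3921, 4098, 4770.0 and 9893 RPM in the dmPFC of A1 to A4, against 2880, 3982, 4480 and 5565 RPM in the lOFC and 2796, 3111, 2193 and 7350 RPM in the mOFC. The dmPFC exceeded both OFC pieces in each animal, and A4 was the highest animal in each region, so that the groups overlapped. The log2 difference was 0.48 (SE 0.15, 95% interval 0.16 to 0.80, limma adjusted p = 0.30). DESeq2 on recovered reads gave 0.43 with an adjusted p of 0.0133. hsa-miR-146a-5p itself, which is also found in white blood cells, had a log2 difference of 0.14 (SE 0.16).

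Red cell miRNAs came next. hsa-miR-144-3p and hsa-miR-451a are processed from a shared erythroid transcript. hsa-miR-144-3p was at 29.4, 40.1, 55.1 and 29.1 RPM in the dmPFC of A1 to A4, against 34.0, 29.2, 36.0 and 10.9 RPM in the lOFC and 25.2, 19.8, 31.95 and 29.3 RPM in the mOFC. The dmPFC was higher by about the same amount in A2, A3 and A4 (log2 differences 0.71, 0.68 and 0.67) and level with the OFC in A1 (0.0062), for a mean of 0.52 (SE 0.16, adjusted p = 0.30). Without A1 it was called at 0.69. hsa-miR-451a was at 236, 342, 518 and 239 RPM in the dmPFC, against 240, 275, 316 and 129 RPM in the lOFC and 177, 255, 237 and 280 RPM in the mOFC, a log2 difference of 0.45 (SE 0.16, adjusted p = 0.36). Without A3, where its difference was largest, it was 0.30.

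hsa-miR-145-3p, from the miR-143/145 transcript of smooth muscle cells and pericytes, completed the 6. It was at 48.6, 46.1, 39.9 and 96.8 RPM in the dmPFC of A1 to A4, against 34.0, 40.8, 32.9 and 52.6 RPM in the lOFC and 21.04, 24.5, 30.8 and 152 RPM in the mOFC. The dmPFC was above both OFC pieces in A1, A2 and A3, and in A4 the mOFC was the highest piece. The log2 difference was 0.45 (SE 0.16, adjusted p = 0.36).

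The miRNAs below the OFC in 4 of 4 animals had smaller differences, between −0.58 and −0.41 for the 6 with the smallest p among those averaging at least 10 RPM over the 12 libraries. hsa-miR-485-3p, of the large imprinted miRNA cluster at 14q32 in human, was at 111, 90.4, 93.1 and 75.6 RPM in the dmPFC of A1 to A4, against 125, 121, 104 and 98.1 RPM in the lOFC and 149, 110, 248 and 138 RPM in the mOFC. In each animal the dmPFC was the lowest of the 3 pieces, and the mOFC of A3 was the highest library. The log2 difference was −0.51 (SE 0.15, 95% interval −0.83 to −0.19, adjusted p = 0.30). hsa-miR-1185-1-3p, from the same cluster, lay at 6.68 to 9.46 RPM in the dmPFC, 5.81 to 13.4 RPM in the lOFC and 8.66 to 24.2 RPM in the mOFC, with a log2 difference of −0.44 (SE 0.15, adjusted p = 0.34) and as few as 21 reads in a library.

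hsa-miR-767-5p, encoded in an intron of the GABA-A receptor gene GABRA3, was at 190.0, 152, 133 and 171 RPM in the dmPFC of A1 to A4, against 217, 226, 147 and 195 RPM in the lOFC and 226, 203, 341 and 238 RPM in the mOFC. Here too the dmPFC was the lowest piece of each animal (log2 difference −0.45, SE 0.15, adjusted p = 0.34). The dorsal anterior cingulate cortex of these animals held more, at 360.4 ± 28.5 RPM, and the posterior cingulate cortex less, at 123 ± 30.4 RPM (SD, n = 4 each). hsa-miR-504-5p, from an intron of the gene FGF13, averaged 61.9 ± 22.2 RPM in the dmPFC and 82.0 ± 19.96 RPM in the OFC (SD, n = 4 each). Its log2 difference was −0.41 (SE 0.16, limma adjusted p = 0.52) and was near 0 in A1 (−0.03).

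hsa-miR-488-5p, encoded in an intron of ASTN1, a gene of neuronal migration, had the lowest mean difference of all 362 miRNAs, −0.58 (SE 0.18, adjusted p = 0.31). It was at 7.47, 3.90, 3.24 and 24.6 RPM in the dmPFC of A1 to A4, against 6.07, 7.29, 7.54 and 33.7 RPM in the lOFC and 9.90, 7.22, 10.5 and 26.5 RPM in the mOFC. A4 held the highest level in each region, and within A1 the dmPFC lay between the OFC pieces. The lowest library rested on 15 reads, and without A1 the miRNA was called at −0.75, whereas without A3 the value was −0.36 and was not called. hsa-miR-4446-3p varied little, at 70.7 ± 5.6 RPM in the dmPFC and 96.7 ± 5.7 RPM in the OFC mean (SD, n = 4 each), with a log2 difference of −0.41 (SE 0.15, adjusted p = 0.36). These ranges of animals did not overlap once both OFC pieces were averaged, although the lOFC of A3, at 57.3 RPM, was below every dmPFC library.

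**Figure D4:**
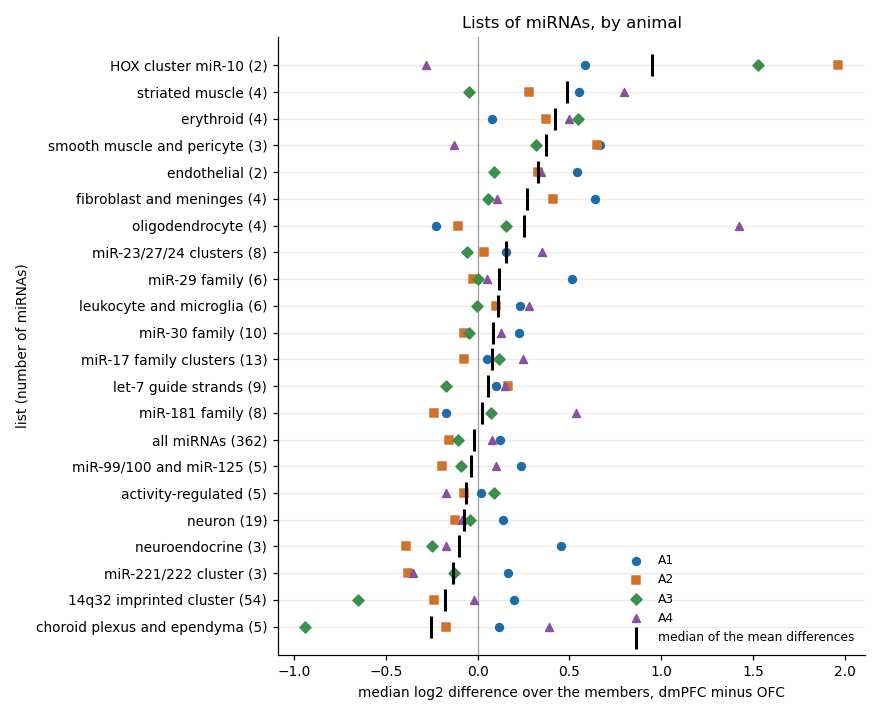
Median log2 difference over the members of each list, dmPFC minus OFC (x axis), for 21 lists and all 362 miRNAs (rows, with the number of miRNAs). Coloured symbols are the 4 animals and black bars the median of the mean differences, which runs between 0.95 for the miR-10 pair and −0.25 for the choroid plexus and ependyma list.

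Lists of miRNAs known for a cell type or made from a common locus were described by counts and medians, beside a median log2 difference of −0.02 over all 362 miRNAs, of which 171 had a mean above 0. Of all 362, 23 (6.35%) were above the OFC in 4 of 4 animals and 31 (8.56%) were below it. The median over all 362 miRNAs was 0.12 in A1, −0.16 in A2, −0.11 in A3 and 0.08 in A4, and medians of single animals are to be read beside these. In every list 0 members passed the test. Lists of vessels and blood had medians above that of all miRNAs. Both endothelial miRNAs were above the OFC in 4 of 4 animals, with a median of 0.33. hsa-miR-126-5p, the arm with more reads, was at 9138, 7883, 8342 and 8162 RPM in the dmPFC of A1 to A4, against 6484, 6656, 8263 and 5806 RPM in the lOFC and 6278, 5393, 6862 and 7621 RPM in the mOFC. Each dmPFC library exceeded both OFC pieces of its animal, by little in A3 (log2 difference 0.34, SE 0.15, 95% interval 0.02 to 0.65, adjusted p = 0.62). hsa-miR-126-3p followed at 0.31 (SE 0.15, adjusted p = 0.69).

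The 3 smooth muscle and pericyte miRNAs had a median of 0.37, with 3 of 3 means above 0 and 1 above in 4 of 4 animals. hsa-miR-143-3p was at 28576, 29553, 23377 and 26265 RPM in the dmPFC of A1 to A4, against 21316, 24489, 19900 and 18691 RPM in the lOFC and 15185, 12904, 20552 and 44170 RPM in the mOFC. In A1 to A3 the dmPFC was the highest piece, and in A4 the mOFC was. hsa-miR-145-5p had a log2 difference of 0.31 (SE 0.18, adjusted p = 0.71), and its sign in A4 (−0.42) was also opposite to that in the others. Leaving out 1 animal moved it between 0.19 and 0.55. Among the 4 miRNAs of fibroblasts and meninges all means were above 0 (median 0.27) and 1 was above in 4 of 4 animals. hsa-miR-199a-3p and hsa-miR-199b-3p, whose reads cannot be told apart and whose values were identical, had a log2 difference of 0.27 (SE 0.16, adjusted p = 0.71), which was 0.15 without A1.

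The erythroid list had a median of 0.42, with 4 of 4 means above 0 and 3 above in 4 of 4 animals, and its summed level was 1161 to 1304 RPM in the dmPFC and 851 to 1313 RPM in the OFC. hsa-miR-486-5p, the most abundant of them, was above the OFC mean in each animal by 0.04 to 0.15 on the log2 scale (mean 0.11, SE 0.14). The leukocyte and microglia list was nearer to 0, with a median of 0.11 and 6 of 6 means above 0. Its summed level was 725 to 905 RPM in the dmPFC and 577 to 879 RPM in the OFC, and its member hsa-miR-142-5p had a log2 difference of 0.07 (SE 0.15). The part of residual blood or of vessels in these differences was not tested.

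Myelin miRNAs set 1 library apart. hsa-miR-219a-2-3p and hsa-miR-338-3p drive the maturation of oligodendrocytes. hsa-miR-219a-2-3p was at 696, 1096, 745 and 849 RPM in the dmPFC of A1 to A4, against 1089, 799, 755 and 556 RPM in the lOFC and 943, 1666, 692 and 105 RPM in the mOFC. The dmPFC libraries were close to each other, and the extremes on both sides were mOFC libraries. hsa-miR-338-3p was likewise low in the mOFC of A4, at 661 RPM, against 1909 to 4251 RPM in the other OFC libraries and 2496 to 2883 RPM in the dmPFC. The 4 oligodendrocyte miRNAs had medians of −0.23, −0.11, 0.15 and 1.42 in A1 to A4, and the median of their means, 0.25, was 0.03 with the OFC of A4 taken from the lOFC alone, 0.14 against the lOFC alone and 0.41 against the mOFC alone.

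**Figure D5:**
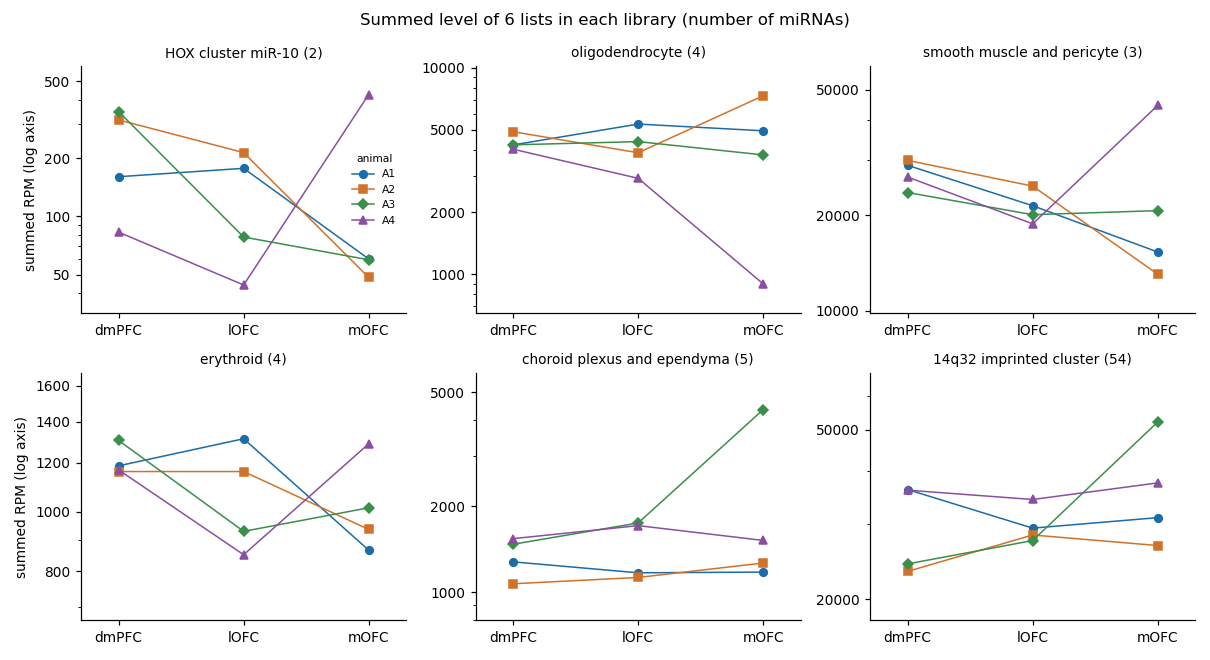
Summed RPM (y axes, log) of 6 lists in the dmPFC, lOFC and mOFC, with 1 line per animal and the number of miRNAs in brackets. The mOFC of A4 is lowest for the oligodendrocyte list and highest for the miR-10 and smooth muscle lists, and the mOFC of A3 is highest for the choroid plexus and 14q32 lists.

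The mOFC of A4 that was low in oligodendrocyte miRNAs (900.0 RPM summed, against 2917 to 7317 RPM in the other 11 libraries) was also the library with the most smooth muscle and pericyte miRNAs, at 44543 RPM against 13051 to 29869 RPM. The mOFC of A3 was high in the choroid plexus and ependyma list, at 4353 RPM against 1069 to 1746 RPM in the other libraries, mostly through hsa-miR-204-5p. That miRNA, encoded in an intron of TRPM3 and abundant in choroid plexus, was at 1117, 910.3, 1286 and 1383 RPM in the dmPFC of A1 to A4, against 991, 979.5, 1538 and 1585 RPM in the lOFC and 976, 1039, 3969 and 1409 RPM in the mOFC. Outside the mOFC of A3 both regions held like levels, and the log2 difference was −0.25 (SE 0.18, adjusted p = 0.72), which was −0.025 without A3. The list's median of −0.25 became 0.18 against the lOFC alone and −0.41 against the mOFC alone. hsa-miR-211-5p, its close relative, had a log2 difference of −0.10 (SE 0.16).

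The imprinted cluster at 14q32, with 54 miRNAs that are mostly expressed in neurons, had a median of −0.18. Of its members 47 had means below 0 and 6 were below the OFC in 4 of 4 animals, and 4 had an unadjusted p under 0.05 in limma. Over all 362 miRNAs the same counts were 191 (52.8%), 31 (8.56%) and 25 (6.91%). The median was 0.20 in A1, −0.24 in A2, −0.65 in A3 and −0.02 in A4, so that the animals did not share a direction. Over all 362 miRNAs the medians were 0.12, −0.16, −0.11 and 0.08 in the same order. Only in A3 did the cluster lie far from the median of all miRNAs. Against the lOFC alone the median over the cluster was −0.01 and against the mOFC alone −0.32. The mOFC of A3 held 52127 RPM of the cluster, against 23267 to 36195 RPM in the dmPFC libraries and 26753 to 37521 RPM in the other OFC libraries. hsa-miR-127-3p, its most abundant member, had a log2 difference of −0.14 (SE 0.17), and hsa-miR-411-5p one of −0.08 (SE 0.17).

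Neuronal miRNAs lay near the median of all miRNAs. Of 19, 12 had means below 0 and 4 were below the OFC in 4 of 4 animals, with a median of −0.07 that turned to 0.0088 under quantile normalization and 0.02 against the lOFC alone, and was −0.14 against the mOFC alone. hsa-miR-128-3p, a miRNA of mature neurons, was at 13376, 11055, 10361 and 15714 RPM in the dmPFC of A1 to A4, against 14432, 15358, 10468 and 20079 RPM in the lOFC and 13585, 13940, 12322 and 16616 RPM in the mOFC. It was lower in the dmPFC in all 8 pairs of libraries, by a log2 difference of −0.20 (SE 0.15, 95% interval −0.52 to 0.11, adjusted p = 0.72). The 5 miRNAs known to respond to neuronal activity had means below 0, with a median of −0.06. Of these, hsa-miR-132-3p, which is induced through CREB, averaged 1916 ± 270.3 RPM in the dmPFC and 1951 ± 169 RPM in the OFC, and hsa-miR-132-5p had a log2 difference of −0.06 (SE 0.15).

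The remaining lists had medians between −0.14 and 0.15, and 0 of their members passed the test. In the cluster of hsa-miR-221-3p and hsa-miR-222-3p, which acts on cell cycle inhibitors, 3 of 3 means were below 0, and hsa-miR-222-3p was below the OFC in 4 of 4 animals, at 2081 ± 269 RPM in the dmPFC and 2651 ± 58.4 RPM in the OFC (SD, n = 4 each; log2 difference −0.33, SE 0.15, adjusted p = 0.67). Its partner hsa-miR-221-3p had a log2 difference of −0.14 (SE 0.16). In the miR-29 family, regulators of collagen and of DNA methylation enzymes, 6 of 6 means were above 0 (median 0.12) and A1 led with 0.52. hsa-miR-29a-3p had a log2 difference of 0.06 (SE 0.15) and hsa-miR-29c-3p one of 0.14 (SE 0.15). In the miR-23/27/24 clusters 6 of 8 means were above 0 (median 0.15), although the most abundant members lay near 0, with hsa-miR-27b-3p at −0.07 (SE 0.16) and hsa-miR-23b-3p at 0.01 (SE 0.17). In the neuroendocrine list the median was −0.10, with hsa-miR-7-5p at −0.10 (SE 0.17) and hsa-miR-7-1-3p at −0.16 (SE 0.15).

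Large families of broadly expressed miRNAs also had medians near 0. The 9 let-7 guide strands, which hold back growth genes in differentiated cells, had a median of 0.05, with hsa-let-7a-5p at 0.11 and hsa-let-7f-5p at 0.05 (SE 0.15 each). The 10 miR-30 miRNAs had a median of 0.08, with hsa-miR-30a-5p at 0.17 and hsa-miR-30d-5p at −0.01 (SE 0.15 each). The 13 miRNAs of the miR-17 family clusters had a median of 0.08, with hsa-miR-92a-3p at −0.05 (SE 0.16) and hsa-miR-25-3p at 0.0025 (SE 0.15). In the miR-181 family the median of 0.02 hid opposite animals: hsa-miR-181b-5p had log2 differences of −0.85, −0.21, −0.09 and 0.88 in A1 to A4. The miR-99/100 and miR-125 list had a median of −0.04. Its member hsa-miR-99b-5p was at 15386 RPM in the dmPFC of A4 and 2291 to 3103 RPM in that of A1 to A3, and at 13989 and 17656 RPM in the OFC of A4 and 2647 to 3638 RPM in that of A1 to A3. That difference between animals was the same in both regions and left a log2 difference of −0.06 (SE 0.15) between them, and hsa-miR-125a-5p had −0.04 (SE 0.15).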

How the data were processed

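Small RNA libraries (Illumina TruSeq, GAIIx) were aligned by the authors to human miRBase with bowtie in mirDeep2 without mismatches (tool versions not given in the sources used here). They dropped shallow libraries and set a minimum read count that a miRNA had to reach in most brain samples. The deposited RPM values, with sequencing runs of a library combined, are reads scaled to a fixed total of mapped miRNA reads, and a further deposited column holds the read count of each miRNA summed over all libraries. Whole reads were recovered from the RPM steps (100% of values up to 200 RPM lay within 0.1 read of a whole number), and their sums per miRNA were 0.99996 to 1.0000015 of the deposited total count.

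The log2(RPM + 1) of the dmPFC was set against the mean of lOFC and mOFC of the same animal in limma 3.58.1 (R 4.3.3, two-sided, Benjamini-Hochberg over 362 miRNAs), with the animal as a block. Fold changes are on this scale and understate those of low miRNAs. The labels name the animal of each library, and same-animal deviations correlated at 0.44 to 0.79 over miRNAs. Each region is 1 piece of tissue per animal. The limma test is moderated: the spread of each miRNA between the 4 animals is drawn towards that of all miRNAs. It has 15.5 total degrees of freedom. SEs, p-values and intervals thus rest partly on the other miRNAs. For miRNAs that vary much between animals they are smaller than the 4 values alone would give. An exact sign-flip test on 4 pairs could not go below 0.125. The labels give an index and the sequencing runs of each library, and no batch of dissection or library preparation. edgeR 4.0.16 and DESeq2 1.42.0 were alternatives on reads summed over both OFC pieces. Further alternatives were other pseudocounts (0.1 and 10 RPM), a minimum of 10 RPM, median-of-ratios and quantile scaling, limma-trend, no block, each OFC piece alone, the log2 of the mean RPM, 12 separate libraries and each animal left out. Taking the OFC of A4, or of A3 and A4, from the lOFC alone was added after seeing the data. Intervals cover this moderated spread between animals, and floors of 3 reads counting error only.

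The animals, lists and tests were chosen with earlier results of these data known. Named miRNAs were those with an adjusted p under 0.05 and 1 direction in 4 of 4 animals (0 were found), filled up to 6 per direction by the smallest unadjusted p with 4 of 4 animals and a mean of at least 10 RPM, plus the 5 most abundant in the dmPFC and 2 per list. hsa-miR-199a-3p and hsa-miR-199b-3p share reads.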

Additional observations from a re-analysis of the deposited data

Results flagged for a closer look

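In 11 of the 81 groups of 4 animals examined, 1 animal lay far from the other 3. Levels were examined as RPM rather than on the log2 scale, and some groups share libraries. The count was therefore not set against a chance rate. For the difference between dmPFC and OFC, hsa-miR-10a-5p reached 2.42 on the log2 scale in A2, against 0.19 to 0.54 in the other animals, and hsa-miR-144-3p stood at 0.0062 in A1, against 0.67 to 0.71. The median difference of the miR-29 family was 0.52 in A1 and −0.02 to 0.05 in the others.

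Among levels, the dmPFC of A2 held 66.1 RPM of hsa-miR-10a-5p against 15.0 to 20.03 RPM in the dmPFC of the other animals, and the dmPFC of A1 held 155 RPM of hsa-miR-34a-5p against 67.2 to 81.0 RPM. The dmPFC of A4 was high in hsa-miR-146b-5p, at 9893 RPM against 3921 to 4770.0 RPM, and in hsa-miR-145-3p, at 96.8 RPM against 39.9 to 48.6 RPM. The mOFC of A4 was higher still in hsa-miR-145-3p, at 152 RPM against 21.04 to 30.8 RPM in the mOFC of the others, and held 408 RPM of hsa-miR-10b-5p against 36.8 to 47.5 RPM. The lOFC of A4 held 33.7 RPM of hsa-miR-488-5p against 6.07 to 7.54 RPM, and the mOFC of A3 held 24.2 RPM of hsa-miR-1185-1-3p against 8.66 to 10.1 RPM. The causes of these values were not tested.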

How the results depend on the processing

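With the animal left out of the fit (no replicate block), 0 miRNAs were called and 10 had an unadjusted p under 0.05, so that pairing changed no call. Of the 20 alternatives, the count of calls stayed at 0 under each that left no animal out, except for 1 call, higher in the dmPFC, in DESeq2 (hsa-miR-146b-5p) and 1 (hsa-miR-10b-5p) with the OFC of A4, or of A3 and A4, taken from the lOFC alone, both chosen after seeing the data. Leaving out 1 animal gave 0 to 5 calls, 0 to 5 of them higher and 0 to 1 lower. For 54 named miRNAs, 35 of 864 values outside these leave-outs changed sign, over 15 miRNAs whose reported log2 difference was at most 0.31 in size; the cause was not tested. Under quantile normalization the sign turned for hsa-miR-26a-5p 0.0581, hsa-miR-181a-5p −0.0581, hsa-miR-132-3p 0.0046, hsa-miR-132-5p 0.025, hsa-miR-92a-3p 0.0764 and hsa-miR-25-3p −0.0166. Against the lOFC alone the sign turned for hsa-miR-181a-5p −0.0254, hsa-miR-22-3p 0.0421, hsa-miR-30d-5p 0.0293 and hsa-miR-411-5p 0.0166. With the OFC of A4 from its lOFC alone the sign turned for hsa-miR-181a-5p −0.0874, hsa-miR-7-5p 0.0117, hsa-miR-25-3p −0.0184 and hsa-miR-30d-5p 0.0192. With the OFC of both A3 and A4 from the lOFC alone the sign turned for hsa-miR-181a-5p −0.0913, hsa-miR-22-3p 0.0427, hsa-miR-338-3p −0.0194, hsa-miR-219a-2-3p −0.0057, hsa-miR-7-5p 0.0516, hsa-miR-30d-5p 0.0385 and hsa-miR-411-5p 0.0522. In edgeR the sign turned for hsa-miR-22-3p 0.0263, hsa-miR-125a-5p 0.0104 and hsa-miR-30d-5p 0.0257. In DESeq2 the sign turned for hsa-miR-22-3p 0.0105 and hsa-miR-30d-5p 0.0099. With the OFC of A3 from its lOFC alone the sign turned for hsa-miR-22-3p 0.03, hsa-miR-92a-3p 0.0208, hsa-miR-30d-5p 0.0079 and hsa-miR-411-5p 0.0335. Against the mOFC alone the sign turned for hsa-miR-132-3p 0.003, hsa-miR-142-5p −0.047, hsa-miR-25-3p −0.031 and hsa-miR-23b-3p −0.11. With the log2 of the mean RPM of both OFC pieces the sign turned for hsa-miR-25-3p −0.0018. The log2 differences that turned when 1 animal was left out ranged as follows: hsa-miR-26a-5p −0.19 to 0.0704, hsa-miR-181a-5p −0.16 to 0.21, hsa-miR-9-5p −0.0753 to 0.17, hsa-miR-22-3p −0.11 to 0.0822, hsa-miR-132-3p −0.0748 to 0.0182, hsa-miR-132-5p −0.12 to 0.0226, hsa-miR-338-3p −0.13 to 0.33, hsa-miR-219a-2-3p −0.19 to 0.59, hsa-let-7f-5p −0.0251 to 0.14, hsa-miR-125a-5p −0.13 to 0.0337, hsa-miR-99b-5p −0.15 to 0.0289, hsa-miR-92a-3p −0.21 to 0.0455, hsa-miR-25-3p −0.10 to 0.0896, hsa-miR-29a-3p −0.0176 to 0.14, hsa-miR-30d-5p −0.0708 to 0.0645, hsa-miR-181b-5p −0.38 to 0.20, hsa-miR-23b-3p −0.13 to 0.19, hsa-miR-127-3p −0.28 to 0.0112 and hsa-miR-411-5p −0.21 to 0.11. Limits: 4 animals with 1 piece of tissue per region leave a typical 95% interval of 0.33 log2 units on each side. This interval is not adjusted for the number of miRNAs tested, so it is not the limit of detection of the adjusted test. Larger log2 differences were also not called, such as 0.75 for hsa-miR-133a-3p, 0.91 for hsa-miR-10a-5p and 0.99 for hsa-miR-10b-5p. The absence of calls thus does not exclude differences above 0.33 log2 units. Low miRNAs rest on few reads, as few as 15 for hsa-miR-488-5p. Dissection, residual blood and cell mix cannot be told apart from region in bulk tissue.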
